A study of Arabidopsis thaliana with 4 samples.

Results

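Transcript levels in shoot apices of as1-1 mutant Arabidopsis thaliana plants were set against those of wild type plants, and the 2 arrays differed at least 2-fold at 457 of 22746 probe sets. A probe set is the group of short probes by which an Affymetrix array reads 1 transcript, and its signal is a linear fluorescence intensity. The comparison uses 2 of the 4 arrays of the series. It took every probe set of the deposited table, raised signals under 43 to 43 on each array, and kept those at least 2-fold apart. A second, smaller group was kept from these, the probe sets that in as2-1 stood under 1.3-fold from wild type, which numbered 35.

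The arrays came from as1-1 mutants, as2-1 mutants, an AS2 overexpressing line and wild type plants, with 1 array for each genotype. All 4 were of the Col-0 background, and the plants were grown on soil for 14 days under 16 h of light and 8 h of dark before apices carrying leaf primordia were taken. The sources used here do not give the promoter that drove AS2 or the number of plants pooled for an array. Part of the submitters' free text speaks of embryos, against the tissue and growth labels, and the tissue labels were followed.

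AS1 is a transcription factor with a MYB domain, and AS2 belongs to the LBD proteins, which are found in plants. They act in one complex in young leaf primordia, where they keep class I KNOX homeobox genes of the meristem off and promote the adaxial, or upper, identity of the leaf. Plants that lack either gene make asymmetric leaves that are lobed or curled downwards. The study compared the genotypes to find genes that depend on AS1 and AS2.

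No value below has a replicate. A fold difference therefore describes these arrays alone, no test was possible, and precision is limited throughout by the number of arrays. A gene that was higher or lower in as1-1 was at least 2-fold apart from wild type on these arrays. In tissue RNA, fewer cells of a type and less RNA per cell cannot be told apart.

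Between 59.0% and 61.0% of probe sets reached 43 on each of the 4 arrays, and the mean signals, with 2% of probe sets trimmed at each end, lay between 198.4 and 198.5. Of 14307 probe sets that reached 43 in as1-1 or wild type, the median log2 difference (as1-1 minus wild type) was 0.0054. The middle of the differences was narrow, with a robust spread of 0.37 on the log2 scale over the 13210 probe sets that reached 43 on both arrays. The naming tables gave 1 gene to 13513 probe sets, several genes to 503 and none to 8730. No probe set was named AS1, AS2 or a class I KNOX gene, so the mutated genes themselves were not analysed here and the genotype labels could not be checked on them. Of 7 genes that plant studies use as stable references, 0 were 2-fold apart, their median log2 difference was 0.0056, and AT5G15710 was the farthest of them from wild type at 0.69.

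Of 45 marker genes for cell types of the shoot apex, the mature leaf and other organs, 7 were named on the array. SPCH, a regulator that starts the stomatal lineage, had signals of 193.5 in as1-1, 216.8 in as2-1, 188.8 in the AS2 overexpressing line and 215.1 in wild type. FAMA, which acts at the end of that lineage, had 64.3 in as1-1, 77.3 in as2-1, 79.7 in the AS2 overexpressing line and 90.6 in wild type. SPCH and FAMA thus reached 43 on all 4 arrays, and the general epidermis markers had no named probe set. CLV3 and UFO, markers of the shoot meristem, lay under 43 on all 4 arrays, with CLV3 at 1.6 in as1-1 and 23.2 in wild type. MUTE, of the stomatal lineage like SPCH and FAMA, and TRY, a trichome marker, also lay under 43 on all 4. RCA, the Rubisco activase gene that marks green mesophyll, had 4971.3 in as1-1 and 9159.9 in wild type, 1.84-fold lower in as1-1. The other meristem markers, STM, KNAT1, KNAT2, KNAT6, WUS and CLV1, had no named probe set. The 2 meristem markers named here thus do not tell how much meristem the labelled tissue held.

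In as1-1, 258 probe sets were higher (1.8% of those that reached 43 on either array) and 199 were lower (1.39%). The median size of the difference was 2.29-fold among the higher and 2.24-fold among the lower ones. Of the higher probe sets, 30 were at least 3-fold apart, and of the lower ones 32 were. For 32 of the higher and 37 of the lower probe sets the dimmer signal lay under 43, so that the fold is a lower bound. A single gene was named for 128 of the higher and 96 of the lower probe sets. In as2-1, against the same wild type array, the median log2 differences of these 2 groups were 0.98 and -1.10, where as1-1 had 1.19 and -1.17. The wild type array is shared by both comparisons, so a chance value on it enters both.

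**Figure D1:**
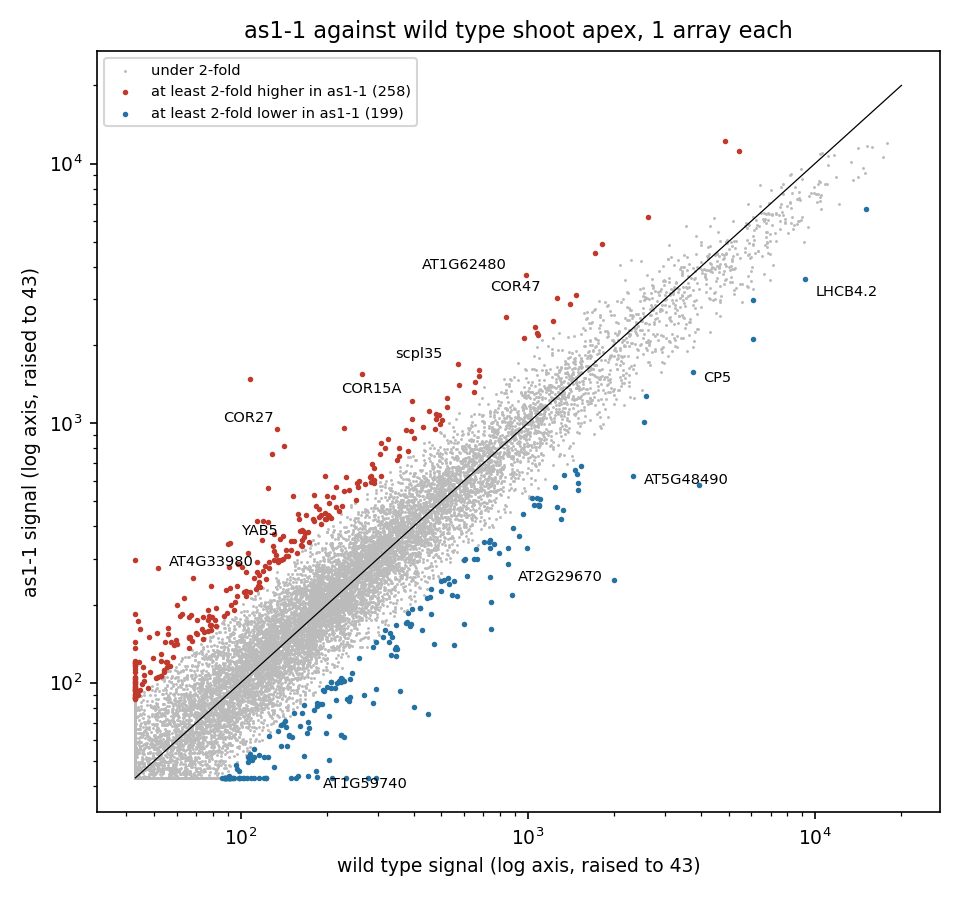
Signals of all 22746 probe sets in as1-1 (vertical axis) against wild type (horizontal axis), both on log axes and raised to 43, with 1 array each and the line of equal signal. Red points are the 258 probe sets at least 2-fold higher in as1-1 and blue points the 199 at least 2-fold lower, and LHCB4.2 stands among the brightest of the lower ones.

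The probe sets nearest to the threshold differed little in size. AT2G43850 was just inside at 2.002-fold higher and AT5G15550 just outside at 1.995-fold higher. On the lower side AT5G56850 stood at 2.001-fold and AT1G69400 at 1.999-fold.

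A gene that ties the clock to temperature gave the largest measured difference among named genes. COR27, a cold-regulated gene whose product also feeds into the clock, had a signal of 953 in as1-1, 675.7 in as2-1, 925.1 in the AS2 overexpressing line and 134 in wild type. It was 7.11-fold higher in as1-1, and wild type was the single low array of the 4. AT4G33980, the other member of the clock list that was higher, had 275.7 in as1-1, 158.7 in as2-1, 264.4 in the AS2 overexpressing line and 51.7 in wild type. Here again wild type alone was low, and the difference in as1-1 was 5.33-fold. AT1G07050, which was on no list, showed the same order of arrays, with 564 in as1-1, 398.6 in as2-1, 506.9 in the AS2 overexpressing line and 124.9 in wild type.

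The clock list had 4 named members, of which 2 were higher and 0 lower in as1-1, beside 1.8% and 1.39% of all probe sets tested. Its median log2 difference was 1.22 against 0.0054 over all probe sets tested, and 0.75 with a floor of 100. GI, a clock gene of the evening that also promotes flowering, stood apart from COR27 in its pattern. Its signal was 616.2 in as1-1, 183.6 in as2-1, 642.4 in the AS2 overexpressing line and 602.3 in wild type. The as2-1 array was the low one for GI, and as1-1 differed from wild type by only 0.03 on the log2 scale. AT5G52660 was 1.17-fold lower in as1-1. The sources used here give no hour of sampling for any array, and its part in these differences was not tested.

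Cold and dehydration genes were the list of the naming rule with most members higher in as1-1. Like all lists here, it was chosen with earlier results of these data known. Of 12 named probe sets, 8 reached 43, of which 5 were higher and 0 lower. Over all probe sets tested, 1.8% were higher and 1.39% lower. The median log2 difference of the list was 1.09 in as1-1 and 0.21 in as2-1. With no floor, which takes in the members under 43, the median in as1-1 was 0.41. COR27 is one of the 5 and is counted on the clock list as well. COR15A, which encodes a chloroplast protein that protects membranes during freezing, had a signal of 1216.6 in as1-1, 309.5 in as2-1, 315.6 in the AS2 overexpressing line and 394 in wild type. It was 3.09-fold higher in as1-1 than in wild type, and the as1-1 array stood clear of the other three. COR15B, its close relative, had 1317.4 in as1-1, 783.6 in as2-1, 1061.6 in the AS2 overexpressing line and 651.8 in wild type, and was 2.02-fold higher in as1-1. In contrast to COR15A, the AS2 overexpressing array was also high for COR15B.

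The dehydrins, hydrophilic proteins made under cold and drought, followed. COR47 had a signal of 3044.8 in as1-1, 2029.2 in as2-1, 934.7 in the AS2 overexpressing line and 1264.5 in wild type, and was 2.41-fold higher in as1-1. LTI30 had 261 in as1-1, 154.4 in as2-1, 107.6 in the AS2 overexpressing line and 115.9 in wild type, and was 2.25-fold higher in as1-1. Both genes were highest in as1-1, next in as2-1, and lowest in the AS2 overexpressing line. The 3 members that were not 2-fold apart, AT1G54410, AT2G44060 and AT2G46140, had log2 differences of 0.26, -0.04 and -0.31 in as1-1. The call of COR15B ended at a log2 difference of 0.97 when the arrays were centred on their brighter probe sets, those at or above the median level. Whether transcripts of COR15A and COR15B bind each other's probes could not be read from the sources used here.

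**Figure D2:**
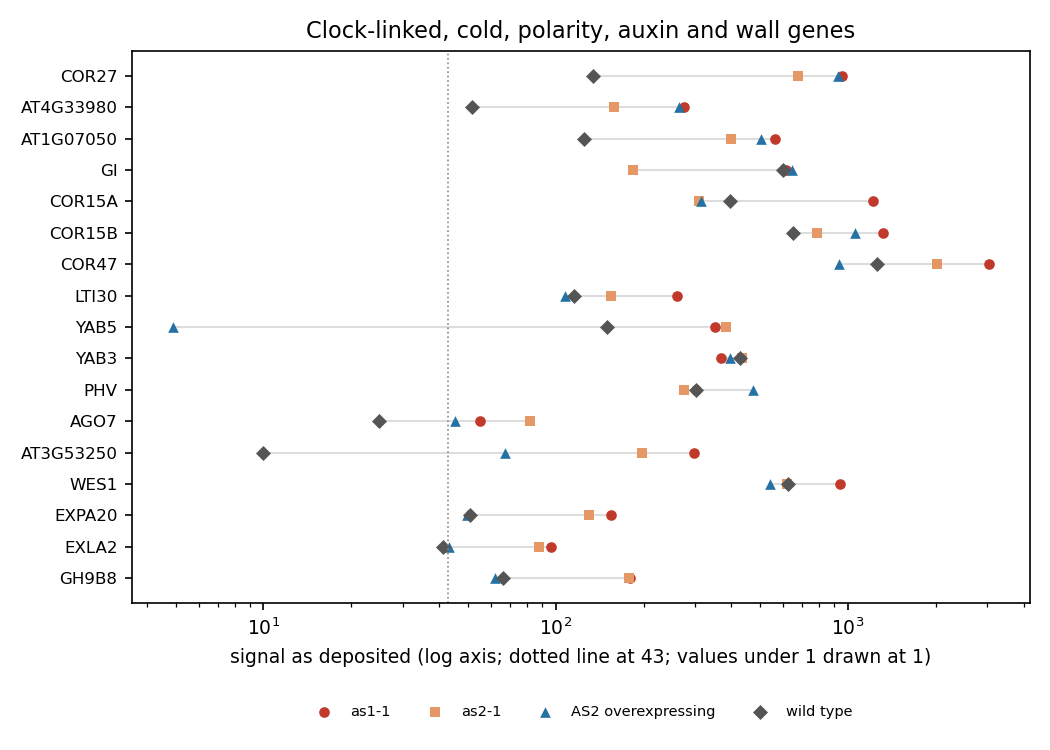
Deposited signals of 17 genes on the arrays of as1-1, as2-1, the AS2 overexpressing line and wild type (log horizontal axis, 1 array per genotype, dotted line at 43), grouped from top to bottom as clock-linked, cold, leaf polarity, auxin and wall genes. COR27 is low in wild type alone, COR15A is high in as1-1 alone, and YAB5 is far down in the AS2 overexpressing line at 4.9.

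Among regulators of leaf polarity, YAB5 was the 1 called member of 4, and was higher like 1.8% of all probe sets tested. YABBY genes encode transcription factors of the abaxial, or lower, side of the leaf. YAB5 had a signal of 350.8 in as1-1, 383.9 in as2-1, 4.9 in the AS2 overexpressing line and 149.7 in wild type, and was 2.34-fold higher in as1-1. Both mutants lay above wild type and the overexpressing line lay below it. The other members were not called in as1-1. YAB3, a second YABBY gene, had 369.1 in as1-1 and 428.6 in wild type. PHV, a class III homeodomain gene of the adaxial side, had 303.3 in as1-1 and 301.9 in wild type. AGO7, whose product loads the small RNA that starts the tasiRNA pathway against abaxial auxin response factors, had 55.2 in as1-1, 82 in as2-1, 45.2 in the AS2 overexpressing line and 24.9 in wild type. Since wild type lay under 43, AGO7 was at least 1.28-fold higher in as1-1, and this lower bound leaves its true fold unknown.

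The floral list was long, with 45 probe sets, but 7 reached 43 and 2 were 2-fold apart in as1-1. They were 1 higher and 1 lower, beside 1.8% and 1.39% of all probe sets tested. AGL24, a flowering promoter of the MADS-box family, had a signal of 76.4 in as1-1, 114.3 in as2-1, 121.2 in the AS2 overexpressing line and 153.1 in wild type. It was 2.0-fold lower in as1-1, and the mutants stood below the other arrays. AGL24 fell short of 2-fold with median centring of the arrays or a floor of 100. AT1G30260, which RefSeq lists with the synonym AGL79, was 2.26-fold higher in as1-1 (173.9 in as1-1, 76.8 in wild type). The same table gives AGL79 as the symbol of another locus, AT3G30260, whose probe sets lay under 43 on all 4 arrays, so the place of AT1G30260 on this list is doubtful.

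Auxin moves cell expansion in young leaves through short-lived SAUR and Aux/IAA proteins and through GH3 enzymes that conjugate the hormone. The auxin list had 10 named members, of which 4 reached 43, and 1 was higher and 0 were lower in as1-1. The shares over all probe sets tested were 1.8% higher and 1.39% lower. All 4 tested members had log2 differences above 0, beside 50.5% of all probe sets tested. SAUR57 (AT3G53250) had a signal of 297.8 in as1-1, 197.7 in as2-1, 67.1 in the AS2 overexpressing line and 10 in wild type. It was at least 6.93-fold higher in as1-1, with wild type under 43 and both mutants well above the overexpressing line. IAA18, IAA29 and IAA30 had log2 differences of 0.53, 0.55 and 0.29 in as1-1, none of them 2-fold. Another list, of 8 auxin genes drawn up after values had been seen, also held WES1, a GH3 gene with 944.4 in as1-1 and 623.6 in wild type, and GH3.3 with 130.8 in as1-1 and 164.5 in wild type. Over its 6 tested members the median log2 difference was 0.54 in as1-1 and 0.02 in as2-1.

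Genes of the cell wall were represented by expansins, which loosen the wall during growth, and by cellulases of family GH9. Of 19 named expansin probe sets 11 reached 43, and 2 were higher and 0 lower in as1-1. Among all probe sets tested, 1.8% were higher and 1.39% lower. The median log2 difference of the expansins was 0.12, which turned to -0.17 with no floor. EXPA20 had a signal of 154.7 in as1-1, 130.6 in as2-1, 49.8 in the AS2 overexpressing line and 50.9 in wild type, 3.04-fold higher in as1-1. EXLA2 had 96.8 in as1-1, 87.6 in as2-1, 43.3 in the AS2 overexpressing line and 41.1 in wild type, at least 2.25-fold higher in as1-1. In both genes the 2 mutants formed the high pair and the overexpressing line lay beside wild type. EXPA16 and EXLA1 had 1.90-fold and 1.88-fold higher signals in as1-1, under the threshold, and EXPB1 was at the other end at 1.54-fold lower.

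GH9B8, a cellulase gene, split the arrays in the same way as the expansins. Its signal was 179.2 in as1-1, 178.4 in as2-1, 61.9 in the AS2 overexpressing line and 66 in wild type, 2.72-fold higher in as1-1. It was the 1 called member of 5 tested glycosyl hydrolase genes, beside 1.8% higher and 1.39% lower over all probe sets tested. GH9C2 came next at 1.76-fold higher. The list of xyloglucan and pectin remodelling genes had 8 tested members and 0 calls, with a median log2 difference of -0.02. It leaves out loci that the naming tables do not name as such, so called genes of these families may lie outside it. The calls of EXPA20, EXLA2 and GH9B8 ended with a floor of 100.

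Serine carboxypeptidase-like genes and subtilases are secreted proteases and related acyltransferases. Of 16 tested members of this list 1 was higher and 0 were lower in as1-1, beside 1.8% and 1.39% of all probe sets tested. The median log2 difference of the list was 0.13. The list takes in genes named as such in the tables and leaves out loci with no symbol. Its counts are therefore not those of the whole families, and called members may lie outside it. The called gene, scpl35, had a signal of 1686.7 in as1-1, 1994.2 in as2-1, 1509.3 in the AS2 overexpressing line and 569.9 in wild type, 2.96-fold higher in as1-1. Wild type was again the single low array. SCPL49 was 1.96-fold higher in as1-1, just under the threshold.

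On the 3 lists of photosynthesis genes that the naming rule used, 1 of 5 light harvesting genes was lower in as1-1. Of 3 Calvin cycle and 3 pigment synthesis genes 0 were lower, beside 1.39% of all probe sets tested. The median log2 differences of the 3 lists, in this order, were -0.41, -0.75 and -0.59 in as1-1. After quantile normalization, which gives all arrays the same distribution, they were -0.21, -0.59 and -0.54. The called gene, LHCB4.2, which encodes an antenna protein of photosystem II, had a signal of 3592.7 in as1-1, 1726 in as2-1, 5852.9 in the AS2 overexpressing line and 9224.4 in wild type. It was 2.57-fold lower in as1-1, and both mutants lay under both other arrays. TRXF2, a chloroplast thioredoxin that switches on Calvin cycle enzymes in the light, had 483.9 in as1-1, 335.2 in as2-1, 722 in the AS2 overexpressing line and 1046.3 in wild type, 2.16-fold lower in as1-1. The order of the arrays was the same for both genes.

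A list of 15 nuclear photosynthesis genes, drawn up after values had been seen, held 0 genes higher and 2 lower in as1-1. The shares over all probe sets tested were 1.8% higher and 1.39% lower. Of the 15, 14 had log2 differences below 0, beside 49.4% of all probe sets tested, and the median was -0.75 in as1-1, -0.58 in as2-1, and -0.22 on the array of the AS2 overexpressing line. PSAN and PSBY, subunits of photosystems I and II, were 1.77-fold and 1.76-fold lower in as1-1. SBPASE and PRK, enzymes of the Calvin cycle, were 1.68-fold and 1.5-fold lower. CHLI2 and PORB, which act in chlorophyll synthesis, were 1.76-fold and 1.5-fold lower, and NTRC, a reductase of chloroplast thioredoxin systems, was 1.71-fold lower. The exception was LHCB4.3, with 121.2 in as1-1 and 96.1 in wild type.

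Very bright probe sets in general leaned the same way. Of 141 probe sets with a mean signal of 5000 or more, the median log2 difference in as1-1 was -0.28, and of 416 between 2000 and 5000 it was -0.11, while the dimmer classes lay between -0.02 and 0.05. Quantile normalization left the median of the 15 photosynthesis genes at -0.56. Genes of the plastid genome were not lower to that extent, with a median of -0.19 over 69 tested probe sets, of which 1 was higher and 0 lower. That gene, ndhF, which encodes a subunit of the chloroplast NDH complex, had 315.9 in as1-1, 197.5 in as2-1, 177.4 in the AS2 overexpressing line and 106.3 in wild type. Like ndhF, another pair of genes for chloroplast complexes was chosen after the values were seen, and both were lower in as1-1. CCB3, an assembly factor of the cytochrome b6f complex, was 2.28-fold lower (143.7 in as1-1, 327.2 in wild type), and CRR41, an assembly factor of the NDH complex, was 2.16-fold lower (101.6 in as1-1, 219.6 in wild type).

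**Figure D3:**
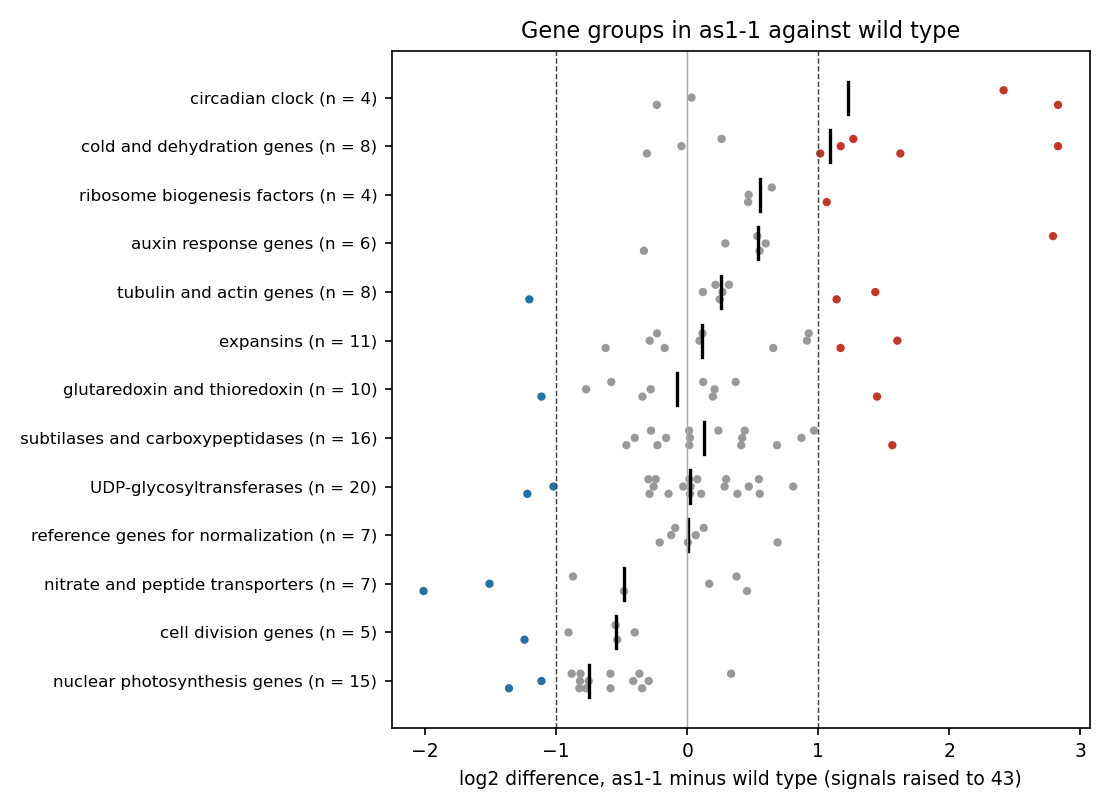
Log2 differences, as1-1 minus wild type with signals raised to 43, for each tested probe set of 13 gene groups (1 point each), with black bars for group medians and dashed lines at 2-fold. Red points are at least 2-fold higher and blue points at least 2-fold lower in as1-1, the clock and cold groups lie to the right with medians of 1.22 and 1.09, and the photosynthesis group lies to the left with a median of -0.75.

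The list of glutaredoxin and thioredoxin genes gave 1 call on each side. It leaves out loci that the naming tables do not name as such, so called genes of these families may lie outside it. Of its 10 tested genes 1 was higher and 1, TRXF2, was lower in as1-1, beside 1.8% and 1.39% of all probe sets tested. The median of the list was -0.08. GRXC1, a glutaredoxin that reduces disulphides with glutathione, had a signal of 182.6 in as1-1, 135.2 in as2-1, 65.9 in the AS2 overexpressing line and 66.9 in wild type, 2.73-fold higher in as1-1. The mutants formed the high pair for GRXC1. Its call ended with the floor at 100.

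Transporters of the NRT1/PTR family move nitrate, peptides, hormones and glucosinolates across membranes. Of 7 tested genes that the naming tables name as such transporters, 2 were lower and 0 higher in as1-1. Over all probe sets tested, 1.39% were lower and 1.8% higher. Loci without such a name were left out, so the count is not that of the family. NPF4.3 (AT1G59740) had a signal of 45.5 in as1-1, 89.9 in as2-1, 287 in the AS2 overexpressing line and 183.6 in wild type, 4.04-fold lower in as1-1. NPF6.4 (AT3G21670) had 38.8 in as1-1, 14 in as2-1, 3.6 in the AS2 overexpressing line and 122.4 in wild type, at least 2.85-fold lower in as1-1. The overexpressing line was the highest array for NPF4.3 and the lowest for NPF6.4. GTR1 and GTR2, the glucosinolate transporters of the same family, were 1.12-fold and 1.37-fold higher in as1-1, with GTR2 at 375.7 in as1-1 and 273.8 in wild type. Both transporter calls rest on low signals in as1-1 and ended with the floor at 100.

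Among 20 tested glycosyltransferase genes, whose enzymes attach sugars to hormones and secondary metabolites, 0 were higher and 2 were lower in as1-1. Across all probe sets tested, 1.8% were higher and 1.39% lower. UGT88A1 had a signal of 637.3 in as1-1, 547.9 in as2-1, 982.6 in the AS2 overexpressing line and 1484.7 in wild type, 2.33-fold lower in as1-1. UGT74D1, whose enzyme can glucosylate auxins, had 82 in as1-1, 95 in as2-1, 76.5 in the AS2 overexpressing line and 166.4 in wild type, 2.03-fold lower in as1-1. For UGT74D1 the wild type array was the single high one, and its call ended with a floor of 100, at a log2 difference of -0.73. The median of the list was 0.02.

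In the flavonoid pathway the 2 tested genes lay on opposite sides. CHIL, a chalcone isomerase-like protein that raises flavonoid production, had a signal of 71.2 in as1-1, 107.7 in as2-1, 74.6 in the AS2 overexpressing line and 142.5 in wild type, 2.0-fold lower in as1-1. DFR, an enzyme of anthocyanin synthesis, had 85.3 in as1-1 and 41.6 in wild type, at least 1.98-fold higher, a lower bound that did not reach the threshold. The call of CHIL ended with median centring and with the floor at 100.

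Tubulins form the microtubules that guide cellulose deposition and build the division apparatus. A list of 8 tested tubulin and actin genes was drawn up after values had been seen. In it 2 of 7 tubulins were higher and the 1 tested actin was lower in as1-1. Of all probe sets tested, 1.8% were higher and 1.39% lower. TUB1 had a signal of 835.5 in as1-1, 569.9 in as2-1, 271.5 in the AS2 overexpressing line and 308.9 in wild type, 2.70-fold higher in as1-1. TUB9 had 1442.7 in as1-1, 1291.5 in as2-1, 984.3 in the AS2 overexpressing line and 654.6 in wild type, 2.20-fold higher in as1-1. The other beta-tubulins TUB5, TUB6 and TUB7 had log2 differences of 0.27, 0.25 and 0.12 in as1-1. ACT11, an actin gene, had 83 in as1-1, 145.4 in as2-1, 108.9 in the AS2 overexpressing line and 191.4 in wild type, 2.31-fold lower in as1-1. Sequence shared among the tubulin genes could not be checked against the probes from the sources used here.

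On a list of 5 cell division genes 0 were higher and 1 was lower in as1-1, beside 1.8% and 1.39% of all probe sets tested. Loci that the naming tables do not name were left out, so called genes with this role may lie outside the list. KINESIN-12B, a motor protein of the phragmoplast that lays down the new cell wall, had a signal of 164.7 in as1-1, 181 in as2-1, 208.8 in the AS2 overexpressing line and 389.6 in wild type, 2.37-fold lower in as1-1. Wild type stood clear above the other three arrays. The mitotic Aurora kinase genes AUR1, AUR2 and AUR3 were 1.45-fold, 1.46-fold and 1.87-fold lower in as1-1, and the spindle checkpoint gene BUB3.1 was 1.32-fold lower. These 5 genes, a list drawn up after values had been seen, had a median log2 difference of -0.55 in as1-1, -0.49 in as2-1, and -0.26 on the array of the AS2 overexpressing line. KINESIN-13A, the second member of the kinesin list of the naming rule, had 570.6 in as1-1 and 631.5 in wild type.

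On a list of 4 genes that act in the nucleolus, where ribosomes are assembled, 1 was higher and 0 were lower in as1-1. The share higher over all probe sets tested was 1.8%. Loci that the naming tables do not name were left out, so called genes with this role may lie outside the list. RH57 (AT3G09720), an RNA helicase, had a signal of 93.3 in as1-1, 98.9 in as2-1, 102.8 in the AS2 overexpressing line and 44.6 in wild type. It was 2.09-fold higher in as1-1, a call that ended with a floor of 100. PRH75, another RNA helicase, was 1.56-fold higher. IMP4 and PESCADILLO (AT5G14520), whose yeast relatives act in assembly of the small and the large ribosomal subunit, were both 1.38-fold higher. The 4 genes, a list drawn up after values had been seen, had median log2 differences of 0.56 in as1-1, 0.45 in as2-1, and 0.51 on the array of the AS2 overexpressing line. Wild type was the low array for all 4 genes.

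Further called genes with a known role were on no list and were chosen after their values were seen. NAI1, a bHLH transcription factor needed for endoplasmic reticulum bodies, had a signal of 143.2 in as1-1, 60.7 in as2-1, 121.2 in the AS2 overexpressing line and 31.8 in wild type, at least 3.33-fold higher in as1-1. Hsp70-2, a chaperone of the Hsp70 family, had 337 in as1-1, 339.3 in as2-1, 171.6 in the AS2 overexpressing line and 129.9 in wild type, 2.59-fold higher in as1-1. The mutants were the high pair for Hsp70-2, while NAI1 was high in as1-1 and in the overexpressing line. MOL1, a receptor-like kinase that restrains cambium activity, was 2.16-fold higher (291.5 in as1-1, 135.2 in wild type). XERICO, a RING protein that raises abscisic acid levels, was 2.15-fold higher (426.5 in as1-1, 198.8 in wild type). ATG8B, a protein of the autophagosome membrane, was 2.03-fold higher (159.1 in as1-1, 78.5 in wild type).

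Another 3 genes with known roles were lower in as1-1. AOR, a chloroplast reductase that removes reactive carbonyls, had a signal of 473.3 in as1-1, 571.2 in as2-1, 653.7 in the AS2 overexpressing line and 1262.3 in wild type, 2.67-fold lower in as1-1. ASPGB1, an asparaginase and like ALN chosen after its values were seen, was at least 2.53-fold lower (27 in as1-1, 108.6 in wild type). ALN, the allantoinase of purine breakdown, was 2.08-fold lower (93.3 in as1-1, 193.9 in wild type). For all 3 genes wild type was the highest of the 4 arrays. Lists of glutathione transferases, cytochrome P450, WRKY and bHLH genes had 6, 7, 4 and 5 tested members and 0 calls in as1-1. Their medians lay between -0.27 and -0.04. These lists hold only genes matched by name, so the 0 calls are not those of whole families. NAI1, a called bHLH gene, was not on the bHLH list.

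Many of the largest differences fell on loci for which the naming tables give no symbol or role. On the higher side AT1G62480 was the brightest of these, with 3725.8 in as1-1, 2748.9 in as2-1, 1792.9 in the AS2 overexpressing line and 985.2 in wild type, 3.78-fold higher in as1-1. AT1G06830, AT1G67865, AT1G27030, AT5G22310 and AT5G50335 were 3.95-fold, 3.79-fold, 3.68-fold, 3.63-fold and 3.49-fold higher. In these 5 the as1-1 array was the highest of the 4. AT4G19200, AT2G32220 and AT3G21480 were 3.34-fold, 3.31-fold and 3.13-fold higher, and AT1G62790 was 2.98-fold higher, with its highest signal in as2-1 at 332.5.

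On the lower side AT5G48490 was the brightest, with 626.4 in as1-1, 581.3 in as2-1, 1197 in the AS2 overexpressing line and 2328.2 in wild type, 3.72-fold lower in as1-1. AT3G01060, AT5G59130, AT5G35970 and AT1G73480 were 3.86-fold, 3.60-fold, 3.34-fold and 3.14-fold lower. AT2G29670 was 2.98-fold lower, with 285.4 in as1-1 and 849.5 in wild type. In each of these 6 loci wild type was the highest of the 4 arrays. AT1G66100, AT5G57345, AT5G56100, AT5G16030, AT1G48100, AT5G13770 and AT5G59400 followed, between 2.76-fold and 2.59-fold lower in as1-1.

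No gene was named for 127 of the higher and 101 of the lower probe sets in as1-1, and several genes for 3 and 2. Among those with no gene, 257985_at had a signal of 1474 in as1-1, 1937.3 in as2-1, 1068.3 in the AS2 overexpressing line and 108.1 in wild type, 13.6-fold higher in as1-1. It was the widest measured difference of all 457. On the lower side 254098_at had 249.1 in as1-1, 686.7 in as2-1, 1537.4 in the AS2 overexpressing line and 1989.4 in wild type, 7.99-fold lower in as1-1. Another, 258239_at, had 579.6 in as1-1, 119.3 in as2-1, 1109.8 in the AS2 overexpressing line and 3956.5 in wild type, 6.83-fold lower. Counts of gene families therefore leave these probe sets out.

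A small group of probe sets was apart from wild type in as1-1 and near it in as2-1. Of the probe sets at least 2-fold apart in as1-1, 24 higher ones (0.168% of those tested) and 11 lower ones (0.0769%) were under 1.3-fold from wild type in as2-1. Between as1-1 and as2-1 themselves, the 24 higher probe sets were 1.56-fold to 3.93-fold apart, and 9 of them at least 2-fold. The 11 lower ones were 1.63-fold to 2.51-fold apart, and 5 of them at least 2-fold. A gene under 1.3-fold in as2-1 was thus not always far from its as1-1 level. In the AS2 overexpressing line 16 of the 24 and 3 of the 11 were also under 1.3-fold from wild type. How many of all probe sets tested met that limit was not counted, so these counts are not read as a trait of the group.

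Within these 35 probe sets COR15A had the widest measured gap between the mutants among named genes, 3.93-fold higher in as1-1 than in as2-1. A probe set with no named gene, 248337_at, also stood high in as1-1 alone, with 2562.2 in as1-1, 786.9 in as2-1, 406.9 in the AS2 overexpressing line and 839 in wild type. COR15B belongs to this group too, at 1.68-fold between the mutants. LTI30 stood just outside it at 1.33-fold in as2-1, and so did CHIL and ACT11 at 1.32-fold each. Just inside were AT2G43850 at 1.28-fold and COR15A at 1.27-fold in as2-1. For COR15A the as2-1 signal was below wild type.

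The naming tables give no role for the other 18 named loci of this group, and those under 43 in as1-1 or wild type are named after their values were seen. AT1G23130 had a signal of 121.5 in as1-1, 34 in as2-1, 15.2 in the AS2 overexpressing line and 20.9 in wild type, at least 2.83-fold higher in as1-1. AT3G27473 had 101.2 in as1-1, 0.6 in as2-1, 6.4 in the AS2 overexpressing line and 12.2 in wild type, at least 2.35-fold higher. For both loci as1-1 was the single array above 43. AT2G12400 had 420.8 in as1-1, 220.6 in as2-1, 175.6 in the AS2 overexpressing line and 180.1 in wild type, 2.34-fold higher in as1-1. AT3G48490 had 380 in as1-1, 207.5 in as2-1, 191.2 in the AS2 overexpressing line and 171.1 in wild type, 2.22-fold higher. AT5G01210 had 781.3 in as1-1, 433.7 in as2-1, 466.4 in the AS2 overexpressing line and 383.1 in wild type, 2.04-fold higher. These 3 loci were well above 43 on every array, and as1-1 alone stood out. AT1G13670, AT1G09460, AT2G36220, AT1G48750, AT1G62860, AT3G05640, AT5G45920 and AT2G43850 were 2.24-fold to 2.0-fold higher in as1-1, where the values of AT1G09460 and AT1G62860 are lower bounds.

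Of the 5 named loci lower in as1-1 alone, AT4G12830 had the largest measured difference. Its signal was 78.7 in as1-1, 172.4 in as2-1, 138.4 in the AS2 overexpressing line and 180.1 in wild type, 2.29-fold lower in as1-1. AT3G53370 had 51.9 in as1-1, 99.6 in as2-1, 82.4 in the AS2 overexpressing line and 111 in wild type, 2.14-fold lower. AT3G17640, AT1G20870 and AT1G23205 lay under 43 in as1-1 and were at least 2.20-fold, 2.14-fold and 2.13-fold lower. The as1-1 array was the lowest of the 4 for all 5 loci. All 5 lost their call with a floor of 100, where AT4G12830 was at a log2 difference of -0.85. At that floor 16 of the 35 probe sets were still called, COR15A among them, and with centring on the brighter probe sets 26 were.

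**Figure D4:**
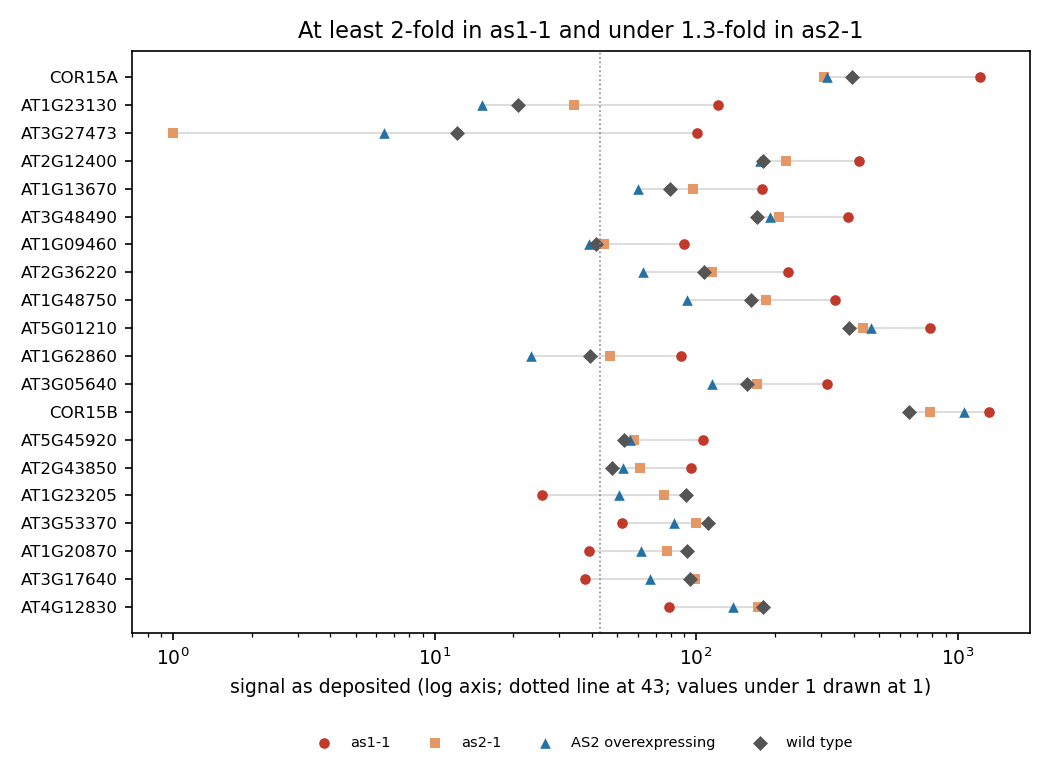
Deposited signals of the 20 named genes at least 2-fold apart in as1-1 and under 1.3-fold in as2-1 against wild type, on the arrays of as1-1, as2-1, the AS2 overexpressing line and wild type (log horizontal axis, 1 array per genotype, dotted line at 43, values under 1 drawn at 1). The upper 15 genes have the as1-1 point at the right end of the row and the lower 5 have it at the left end.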

How the data were processed

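The authors deposited a table of linear signal intensity per probe set for 4 arrays, 1 per genotype, and per the labels RNeasy-purified RNA was labelled by the array maker's standard protocol. The software, scaling and genome build behind the deposited intensities are not given in the sources used here, and no detection call was used. Signals under 43, a level under which 40.1% of all values lay, were raised to 43, and fold and log2 differences were taken as deposited otherwise, with Python 3.11.15, pandas 2.3.3 and numpy 2.4.6. A probe set was tested for size where it reached 43 on either array, and with 1 array a genotype no statistical test was run.

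Names came from the platform's annotation, brought up to date through RefSeq's table of assembly TAIR10.1, in which 13484 probe sets with 1 gene were found and 29 were not. A role is given only to genes with a symbol or descriptive synonym there, as background. Lists matched by words leave out family members without such a name, so the counts of a list are not those of its family. Of 45 lists of genes, 35 had a tested probe set and 14 a called one, and 5 more lists were made with values in view. The comparison, its thresholds and all lists were chosen with earlier results of these data known. The naming rule took 15 genes per direction with the largest measured difference, the same within the group that differed in as1-1 but not in as2-1, and every called list member, 59 genes in all. No promoter or probe sequence was used here, so the planned motif search was not run and no sequence is printed. Calling was run on simulated data with known changes as a check of the code, which does not measure the error of these arrays. Alternatives changed the floor, the scaling, the thresholds, the array set against as1-1, and the use of 1 probe set per gene.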

Additional observations from a re-analysis of the deposited data

How the results depend on the processing

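No paired analysis was possible because each genotype had 1 array, and none could be left out. At a floor of 25 there were 336 higher and 323 lower probe sets in as1-1, with 35 higher and 21 lower in as1-1 but under 1.3-fold in as2-1, and at 100 there were 159 and 118, with 13 and 3. With no floor there were 1707 and 3139, with 204 and 397. With 1 probe set per named gene there were 126 and 96, with 15 and 5. At a threshold of 1.5-fold there were 1185 and 1054, and at 3-fold 30 and 32. A limit of 1.2-fold in as2-1 left 13 higher, and one of 1.5-fold 49 higher and 26 lower. Scaling changed the counts by less than 1.5 times. Of all calls 56.5% were higher, 57.8% after median centring, 49.0% after centring on the brighter probe sets and 54.6% after quantile normalization. With the AS2 overexpressing array in place of wild type 356 were higher and 134 lower, of which 113 and 33 were among the main calls. Of the 59 genes of the naming rule, 23 lost their call at a floor of 100, 5 with centring on the brighter probe sets, 2 with median centring and 0 with quantile normalization, a floor of 25 or no floor, and 0 changed sign. Of list medians, that of nitrate and peptide transporters turned from -0.48 to 0.17 at a floor of 100. Those of glycosyl hydrolases and floral genes turned from 0.44 and 0.12 to -0.31 and -0.26 with no floor. The medians of xyloglucan and pectin remodelling and WRKY genes turned to 0.11 and 0.04 at a floor of 100, where that of P450 genes was -0.05. That of glycosyltransferases turned to -0.02 with centring on the brighter probe sets, and that of proteases and carboxypeptidases shrank to 0.01 with no floor. With single arrays and no detection call, array error cannot be told apart from genotype.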

Other observations

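Called genes that lie side by side on the chromosome were looked up in the TAIR10.1 gene order, for the 219 called genes with a place in it. There were 4 pairs of direct neighbours, 2 with the same direction and 2 with opposite directions. COR15B and COR15A are such neighbours, both higher in as1-1. So are ATG8B and AT4G04630, at 159.1 and 140 in as1-1 against 78.5 and 58.6 in wild type. In the opposite pairs, AT5G48490 had 626.4 in as1-1 and 2328.2 in wild type, while its neighbour AT5G48500 had 465.5 in as1-1 and 187.7 in wild type. AT1G13650 had 25.4 in as1-1 and 149.5 in wild type, while AT1G13670 had 178.6 in as1-1 and 79.7 in wild type. With 1 gene between them stood 2 more pairs, AT1G62480 with AT1G62500, both higher in as1-1, and AT3G08920 with LHCB4.2, both lower.

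The AS2 overexpressing array stood beside the mutants for some genes and beside wild type for others. COR27, AT4G33980, AT1G07050 and scpl35 had 953, 275.7, 564 and 1686.7 in as1-1 and 925.1, 264.4, 506.9 and 1509.3 in the AS2 overexpressing line, against 134, 51.7, 124.9 and 569.9 in wild type. EXPA20, GH9B8, GRXC1 and TUB1 had 154.7, 179.2, 182.6 and 835.5 in as1-1 and 49.8, 61.9, 65.9 and 271.5 in the AS2 overexpressing line, against 50.9, 66, 66.9 and 308.9 in wild type. The genes were chosen after their values were seen, and with 1 wild type array a chance value on it cannot be told apart from a change in all 3 other genotypes.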
